A study of Mus musculus with 16 samples.

Results

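The axon guidance ligands and receptors of photoreceptors sorted from mouse retinal organoids were described across 16 RNA-seq libraries. Members were chosen by symbol: the class 3 to 7 semaphorins, plexins, neuropilins, ephrins, Eph receptors, Slits, Robos, netrins, Unc5 receptors and Dcc, 67 of the 32166 genes in the table. They comprised 20 semaphorins, 9 plexins, 2 neuropilins, 8 ephrins, 13 Eph receptors, 3 Slits, 4 Robos, 3 netrins and 5 netrin receptors. The rule read symbols only and used no measured value, but the members were chosen with earlier results of these data known. All 67 are annotated on the mouse genome build GRCm38, which gives the gene coordinates below. Of these, 63 had a CPM (the normalised read count of a gene, relative to its library) of at least 1 in at least 2 libraries and were tested. Epha1, Epha6, Ntn5 and Robo4 were not tested, and their highest value in any library was 4.85 CPM.

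These proteins steer growing axons and migrating cells. Semaphorins signal through plexins, with neuropilins as co-receptors for most secreted class 3 semaphorins. Slits repel axons through Robo receptors, and netrins attract through Dcc or repel through Unc5 receptors. Ephrins are held on the cell surface and bind Eph receptor tyrosine kinases on neighbouring cells, with signals passing into both cells. In the retina, gradients of Ephs and ephrins map ganglion cell axons onto their targets, Slits and Robos order the axons of ganglion cells, and transmembrane semaphorins with plexins keep neurites in their layers.

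Retinal organoids are cell aggregates in which stem cells organise into layers of retina-like tissue. The ESC libraries came from embryonic stem cells taken from blastocysts of 3.5 days. The iPSC libraries came from induced pluripotent stem cells made from embryonic fibroblasts with inducible lentiviral Oct3/4, Sox2, Klf4 and c-Myc. The donor embryos of these fibroblasts were at embryonic day E14.5. Every group carried the Nrlp-GFP transgene, in which green fluorescent protein is driven by the promoter of Nrl, the gene of a rod-determining transcription factor, and GFP+ cells were sorted before polyA RNA was sequenced. Lines of passage 15 to 25 were differentiated by a modified SFEBq protocol, with 5% oxygen to day 10 and 20% afterwards. Retinoic acid, at 500 nM, is listed from day 14 to day 26, so the libraries of days 28 and 35 were taken after it ended, and the later days cannot be told apart from its removal. There were 3 ESC and 2 iPSC libraries at day 18, 3 and 1 at day 21, 1 and 2 at day 25, and 1 of each source at days 28 and 35. No label states that the libraries of a group were grown as separate cultures, and the spread that the p-values rest on may therefore be technical. Library totals ran from 3818605 to 21787598 estimated counts, and 1 count was worth 0.0372 to 0.216 CPM.

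Some libraries stood apart from their labels. In the libraries labelled ESC day 18 replicate 1 and iPSC day 18 replicate 1, Nrl was at 17.7 and 15.99 CPM, whereas the other 14 libraries held 136 to 1921 CPM, and Mki67, a gene of dividing cells, was at 406 and 462 CPM. Their members differed by a median of 0.13 in log2(CPM + 1), although the labels give them different sources. This was the smallest distance among the 120 pairs of libraries. The next pair, iPSC day 18 replicate 2 and iPSC day 25 replicate 1, differed by 0.33. Mean CPM of Ddx3y, Eif2s3y and Uty, which lie on the Y chromosome, was 0.927 in ESC day 18 replicate 1, against 25.6 to 73.8 in the other ESC libraries. It was 42.2 in iPSC day 18 replicate 2, against 0.626 to 11.4 in the other iPSC libraries. Gnat1, the rod transducin subunit, stood at 1.97 to 5.73 CPM at day 18 and at 139 and 248 CPM at day 35, whereas Nrl and Nr2e3 were at 881 and 709 CPM in iPSC day 18 replicate 2, above ESC day 35 with 556 and 256 CPM. Each was kept under its label.

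Marker genes of other retinal cells also differed between libraries and days. The summed CPM of 7 progenitor markers was 119.6 to 2041 at day 18, 317 in ESC day 35 and 24.1 in iPSC day 35. The 8 ganglion cell markers summed to 53.9 to 313 CPM at day 18, 15.6 to 346 at day 21, 109.5 in ESC day 35 and 7.15 in iPSC day 35. Pou4f2, a defining ganglion cell gene, was at 0 in ESC day 18 replicate 2, iPSC day 21, ESC day 25, iPSC day 25 replicate 2 and both day 28 libraries. Single genes carried some of these sums. In ESC day 18 replicate 2, Slc17a6 was at 264 CPM and the other ganglion cell markers at 0 to 18.4 CPM. In ESC day 35, Isl1 was at 49.5 and Slc17a6 at 25.6 CPM, and the others at 0.167 (Pou4f2) to 15.95 CPM (Nefl). The 7 Müller glia markers summed to 1165 CPM in ESC day 35, where Aqp4 was at 222 CPM, against 244 to 366 at day 18 and 126 in iPSC day 35. The 9 rod markers summed to 39.9 to 2408 CPM at day 18, and to 4447 and 11910.0 CPM in the ESC and iPSC libraries of day 35. The part of these cells in the results below was not tested, and in bulk samples fewer cells of a type and less RNA per cell cannot be told apart.

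Of the 63 guidance genes tested, 9 fell with day of culture and 1, Plxna2, rose. The members that fell were Sema6c, Sema4g and Sema4c, the plexins Plxna1, Plxna3 and Plxnc1, the ephrin Efnb1, the netrin receptor Dcc and the Slit receptor Robo2. The test was a slope over day, fitted with limma on log2(CPM + 1) and adjusted for source, and is given per 7 days of culture. A gene was called where its p, adjusted by Benjamini-Hochberg over all 15202 genes tested, was under 0.05. The share of members called in either direction, 15.9%, was near that of all genes, 12.1%. By direction, 14.3% of members and 5.29% of all genes fell, and 1.59% of members and 6.81% of all genes rose. Slopes were negative for 51 of the 63 members (81%), with a median of -0.31, while 48.5% of all genes had a negative slope and their median was 0.01. Within the members the spread was wide already at day 18. For 55 of the 63, the highest and lowest of the 5 day 18 libraries differed by more than 1 in log2(CPM + 1), and the median range was 1.5004. In level, 24 members were at 5 CPM or more in every library and 15 reached 100 CPM in at least 1. The members together summed to 1430 to 3501 CPM per library.

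**Figure D1:**
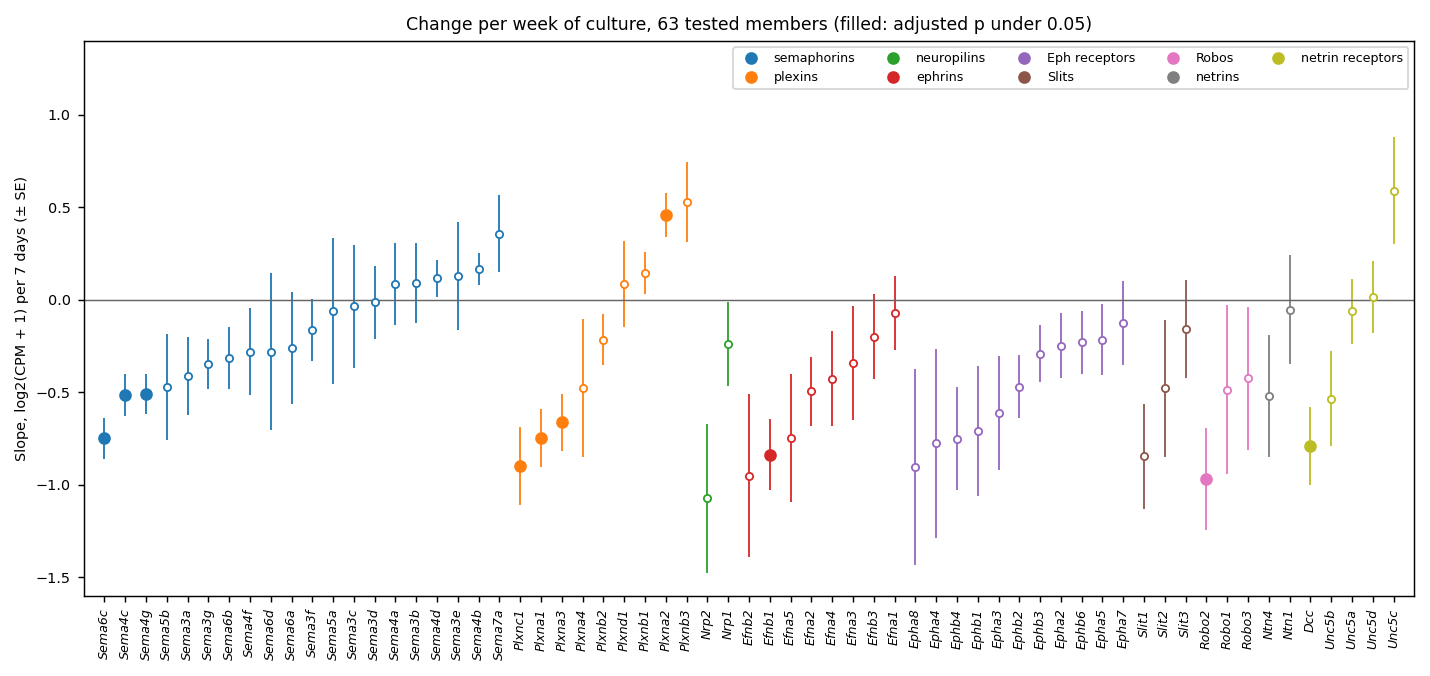
Slope of each tested guidance gene in log2(CPM + 1) per 7 days, with its SE from the limma fit over 16 libraries, grouped by role. Filled points have an adjusted p under 0.05: 9 below 0 and Plxna2 above it; all tested neuropilins, ephrins, Eph receptors, Slits, Robos and netrins have slopes below 0.

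**Figure D2:**
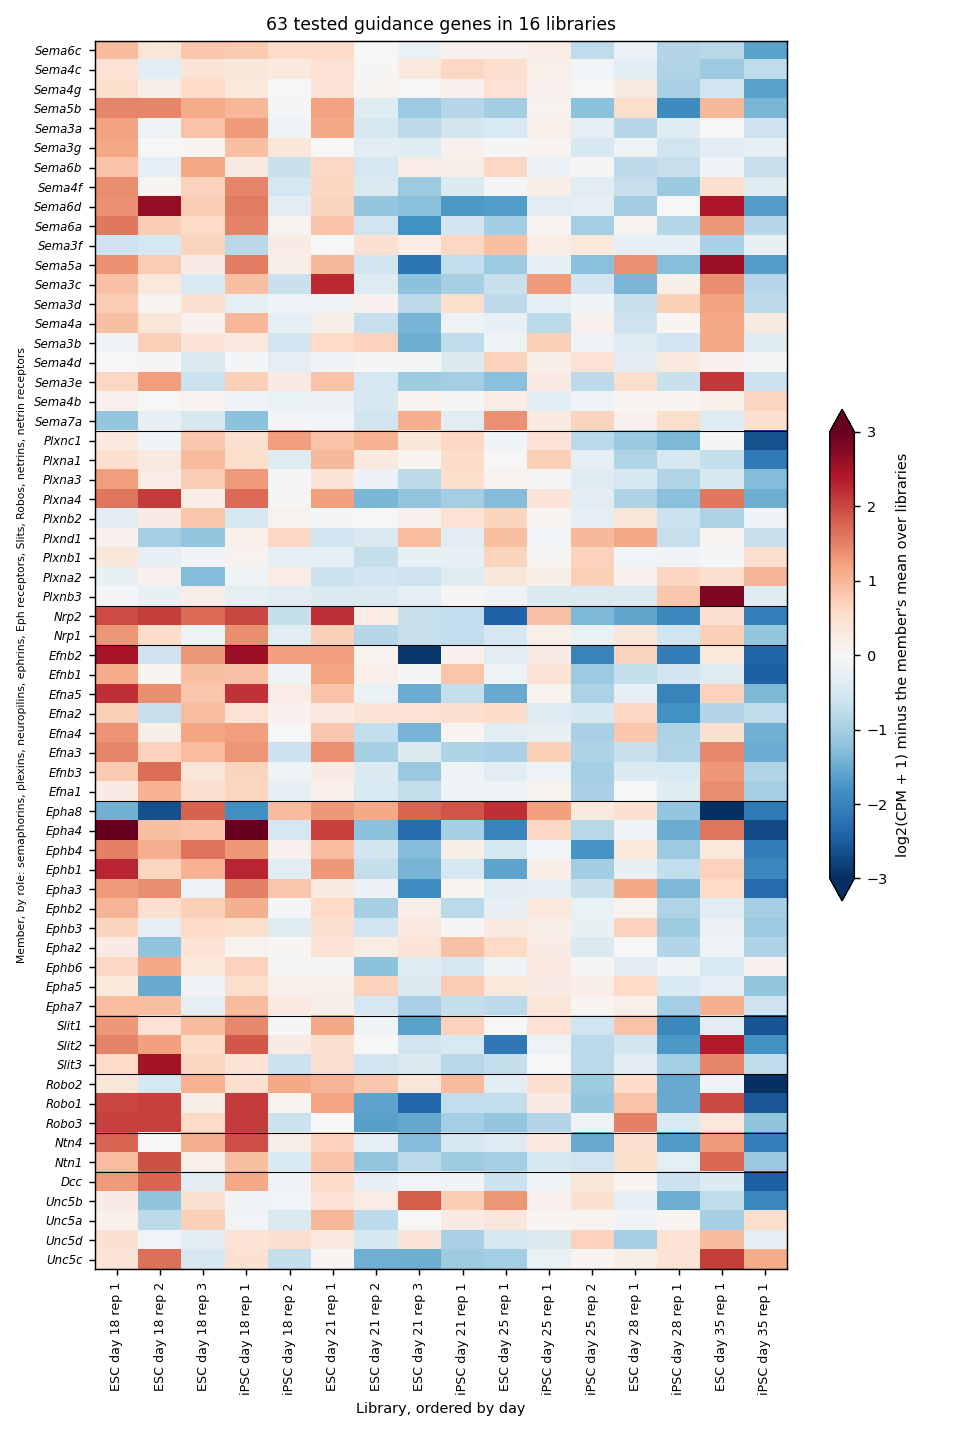
log2(CPM + 1) of the 63 tested members minus each member's mean over the 16 libraries, with libraries ordered by day and colours ending at -3 and 3. The libraries labelled ESC day 18 replicate 1 and iPSC day 18 replicate 1 are nearly alike and high for many members, iPSC day 35 is low for most, and ESC day 35 is high for several that are low in the other late libraries.

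Among the 20 semaphorins, 3 fell with day, 0 rose, and the slopes of 14 were negative. Their summed level was 430 to 577 CPM at day 18, and 450 and 288 CPM in the ESC and iPSC libraries of day 35. Sema6c, a transmembrane semaphorin (chr3:95160457-95174024, plus strand), had the smallest adjusted p of the members. Its levels at day 18 were 48.9, 32.0 and 43.7 CPM from ESC and 43.3 and 36.4 CPM from iPSC, and at day 21 they were 37.0, 24.4 and 21.5 CPM from ESC and 26.9 CPM from iPSC. Day 25 gave 27.3 CPM from ESC and 28.7 and 14.1 CPM from iPSC, day 28 gave 21.6 CPM from ESC and 12.9 CPM from iPSC, and day 35 gave 13.5 CPM from ESC and 7.40 CPM from iPSC. Every day 18 library lay above every library of days 25, 28 and 35, and within each day from 28 on the iPSC library was the lower one. The slope was -0.75 ± 0.11 (SE) per 7 days, with an adjusted p of 0.00112 (limma), and day 35 against day 18 differed by -1.88 ± 0.31 (SE) in log2(CPM + 1), adjusted p 0.00549. In the transcript table the 6 coding transcripts of Sema6c held a median of 19.3% of its TPM (a level corrected for transcript length), from 10.6 to 30.6% over libraries. The leading transcript, Sema6c-205, is annotated as a processed transcript. Mean TPM of the coding transcripts was 11.5 at day 18 and 1.70 at day 35.

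The promoter of Sema6c is shown because the gene gave the smallest adjusted p. The sequence is the window of 240 bases just upstream of the RefSeq start (GRCm38.p6, chr3:95160170-95160409, plus strand), 5′ to 3′, with CG dinucleotides, 14 in all, in capitals.
Sema6c: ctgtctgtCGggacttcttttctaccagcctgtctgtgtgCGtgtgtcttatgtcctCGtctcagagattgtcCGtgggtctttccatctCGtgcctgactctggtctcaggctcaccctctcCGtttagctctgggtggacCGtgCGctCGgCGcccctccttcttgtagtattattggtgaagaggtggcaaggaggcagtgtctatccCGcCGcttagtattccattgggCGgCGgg

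Sema4g and Sema4c, class 4 transmembrane semaphorins, fell as well. Sema4g (chr19:44989101-45003397, plus strand) was at 105, 82.4 and 110.0 CPM from ESC and 90.6 and 71.5 CPM from iPSC at day 18. It held 72.6 to 98.0 CPM at days 21 and 25, and at day 35 it was at 48.1 CPM from ESC and 23.1 CPM from iPSC. Both day 35 libraries lay below all day 18 libraries, as did iPSC day 28, and the slope was -0.51 ± 0.11 (SE) with an adjusted p of 0.00824. Sema4c (chr1:36548639-36558349, minus strand) was at 60.0, 34.6 and 59.8 CPM from ESC and 57.0 and 54.3 CPM from iPSC at day 18, so that replicate 2 from ESC stood below the other 4. Its levels were 45.2 to 68.7 CPM at day 21 and 42.0 to 63.9 CPM at day 25, 35.4 CPM from ESC and 23.2 CPM from iPSC at day 28, and 20.2 CPM from ESC and 25.8 CPM from iPSC at day 35. Both day 35 libraries and iPSC day 28 lay below all day 18 libraries, and ESC day 28 lay just above the lowest of them. The fit gave a slope of -0.51 ± 0.11 (SE) and an adjusted p of 0.0101. The coding transcripts of Sema4c held a median of 72.9% of its TPM. Against day 18, the day 35 difference was -1.37 ± 0.25 (SE) for Sema4g (adjusted p 0.00952) and -1.16 ± 0.26 (SE) for Sema4c (adjusted p 0.0236).

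Sema3f, a secreted repellent that binds neuropilin 2, was the semaphorin of highest mean level in CPM. It was at 71.8, 77.5 and 176 CPM from ESC and 61.9 and 132 CPM from iPSC at day 18, 112 to 170.4 CPM at day 21, 130.1 to 209 CPM at day 25, and 56.5 CPM from ESC and 95.4 CPM from iPSC at day 35. The groups overlapped, and the slope was -0.16 ± 0.17 (SE), adjusted p 0.558. Sema7a, a membrane-anchored semaphorin, had the highest slope of the semaphorins, 0.36 ± 0.21 (SE), which did not pass (adjusted p 0.276). Its levels were 15.0, 29.1 and 24.7 CPM from ESC and 14.2 and 33.5 CPM from iPSC at day 18, 91.2 CPM from ESC and 43.0 and 55.9 CPM from iPSC at day 25 and 26.6 CPM from ESC and 49.0 CPM from iPSC at day 35. Every day 25 library lay above every day 18 library, and the day 25 difference of 1.44 ± 0.41 (SE) had an adjusted p of 0.0942, the smallest of the members at that day. Sema5a, a semaphorin with thrombospondin repeats, was at 58.1 CPM in ESC day 35, its highest library, and at 2.15 CPM in iPSC day 35. The remaining semaphorins had slopes from -0.47 to 0.17.

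The plexins, the receptors of semaphorins, moved in both directions. Of 9, 3 fell, 1 rose, and 5 did not pass. Their summed level was 922 to 1144 CPM at day 18, and 729 and 911 CPM in the ESC and iPSC libraries of day 35. Plxna2, a receptor for transmembrane class 6 semaphorins (chr1:194618218-194816869, plus strand), was at 121, 155 and 56.9 CPM from ESC and 133 and 165 CPM from iPSC at day 18, and at 90.5, 95.3 and 91.9 CPM from ESC and 108 CPM from iPSC at day 21. Its later levels were 179.8 CPM from ESC and 160.0 and 232 CPM from iPSC at day 25, 154 CPM from ESC and 223 CPM from iPSC at day 28, and 196 CPM from ESC and 287 CPM from iPSC at day 35. Day 21 had the lowest mean, both day 35 libraries lay above all libraries of days 18 and 21, and an iPSC library was the highest at each day from 25 on. The slope was 0.46 ± 0.12 (SE), adjusted p 0.0216, and day 35 against day 18 gave 0.96 ± 0.30 (SE), which did not pass (adjusted p 0.0655). Neither day 35 library decided the direction: the slope was 0.48 without ESC day 35 and 0.46 without iPSC day 35, where the adjusted p was 0.080. A single coding transcript, Plxna2-201, held a median of 82.0% of the gene's TPM, with a mean of 23.8 TPM at day 18 and 46.1 TPM at day 35.

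The Plxna2 promoter, from the member that rose, is the window of 240 bases just upstream of its RefSeq start (GRCm38.p6, chr1:194619579-194619818, plus strand), which lies inside the annotated gene. It is written 5′ to 3′ with its 16 CG dinucleotides in capitals.
Plxna2: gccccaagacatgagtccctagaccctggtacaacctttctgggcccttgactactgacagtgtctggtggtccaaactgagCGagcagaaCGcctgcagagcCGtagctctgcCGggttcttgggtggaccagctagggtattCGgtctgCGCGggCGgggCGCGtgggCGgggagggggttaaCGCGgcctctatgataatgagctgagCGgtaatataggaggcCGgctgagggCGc

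Plxna1 and Plxna3, which work with neuropilins as receptors of secreted semaphorins, went the other way. Plxna1 (chr6:89316314-89362620, minus strand) was at 119, 101 and 162 CPM from ESC and 122 and 64.1 CPM from iPSC at day 18, 44.0 CPM from ESC and 59.6 CPM from iPSC at day 28, and 50.6 CPM from ESC and 18.5 CPM from iPSC at day 35. Levels at days 21 and 25 ran from 68.2 to 166 CPM and overlapped day 18, and the 4 libraries of days 28 and 35 lay below all earlier ones. The slope was -0.75 ± 0.16 (SE), adjusted p 0.00835. Plxna3 (chrX:74329066-74344689, plus strand) was at 134, 64.8 and 93.0 CPM from ESC and 136 and 57.1 CPM from iPSC at day 18, 31.8 to 80.0 CPM at day 21, and 39.4 CPM from ESC and 22.1 CPM from iPSC at day 35. The highest values were those of ESC and iPSC day 18 replicate 1, the pair with low Nrl. The slope was -0.66 ± 0.16 (SE), adjusted p 0.0132, and without that pair it was -0.49, adjusted p 0.0502. Plxnc1, a receptor of Sema7a (chr10:94790866-94944835, minus strand), was at 33.1, 24.5 and 47.2 CPM from ESC and 37.7 and 65.2 CPM from iPSC at day 18, 34.2 to 55.7 CPM at day 21, 11.7 CPM from ESC and 9.92 CPM from iPSC at day 28, and 25.9 CPM from ESC and 3.55 CPM from iPSC at day 35. ESC day 35 overlapped day 18 and iPSC day 35 was the lowest library. The slope was -0.90 ± 0.21 (SE), adjusted p 0.0132, while day 35 against day 18 did not pass (adjusted p 0.0541).

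Plxnb2 and Plxnb1, receptors of class 4 semaphorins, were the plexins of highest mean CPM. Plxnb2 was at 268, 398 and 597 CPM from ESC and 238 and 359 CPM from iPSC at day 18 and 173 CPM from ESC and 311 CPM from iPSC at day 35, with a slope of -0.21 ± 0.14 (SE), adjusted p 0.325. Plxnb1 was at 221, 145 and 160.2 CPM from ESC and 187 and 143 CPM from iPSC at day 18 and 168 CPM from ESC and 243 CPM from iPSC at day 35, with a slope of 0.14 ± 0.11 (SE), adjusted p 0.431. For both genes the day 35 libraries overlapped those of day 18, and the coding transcripts of Plxnb1 held a median of 80.8% of its TPM. Plxnb3, a plexin known from oligodendrocytes, was at or under 0.553 CPM in 14 libraries, at 1.37 in iPSC day 28 and at 8.37 in ESC day 35.

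Neither neuropilin passed. Nrp2, the co-receptor of Sema3f, was at 78.5, 85.1 and 65.5 CPM from ESC and 81.7 and 11.5 CPM from iPSC at day 18 and at 93.4, 22.9 and 11.7 CPM from ESC and 11.3 CPM from iPSC at day 21. Later levels were 2.80 CPM from ESC and 36.8 and 7.05 CPM from iPSC at day 25, 6.02 CPM from ESC and 4.35 CPM from iPSC at day 28, and 27.6 CPM from ESC and 3.93 CPM from iPSC at day 35. The days overlapped: iPSC day 18 replicate 2 stood with the later libraries, and ESC day 21 replicate 1 was the highest of the 16. The slope was -1.07 ± 0.40 (SE), adjusted p 0.0908. In these libraries the summed ganglion cell markers were 53.9 CPM for iPSC day 18 replicate 2 and 346 CPM for ESC day 21 replicate 1. The other ESC day 21 libraries held 43.8 and 15.6 CPM. Progenitor markers summed to 581.6 CPM in iPSC day 18 replicate 2 and 588.2 CPM in ESC day 21 replicate 1. Fibroblast and feeder markers summed to 3.20 and 75.4 CPM in the same order. The part of these cells was not tested. Nrp1, the co-receptor of Sema3a, was at 51.1, 29.4 and 17.9 CPM from ESC and 54.1 and 15.7 CPM from iPSC at day 18, 10.5 to 33.5 CPM at day 21, and 33.4 CPM from ESC and 8.30 CPM from iPSC at day 35, with a slope of -0.24 ± 0.23 (SE), adjusted p 0.521.

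Slopes were negative for all 8 ephrins, the ligands of Eph receptors, and 1 of them, Efnb1, fell. Their summed level was 201 to 539 CPM at day 18, and 206 and 36.8 CPM in the ESC and iPSC libraries of day 35. Efnb1, a transmembrane B ephrin (chrX:99136130-99148991, plus strand), was at 45.1, 21.3 and 39.0 CPM from ESC and 38.1 and 18.2 CPM from iPSC at day 18, and at 47.7, 22.8 and 19.5 CPM from ESC and 36.8 CPM from iPSC at day 21. It was at 18.2 CPM from ESC and 27.4 and 8.99 CPM from iPSC at day 25, 11.9 CPM from ESC and 13.2 CPM from iPSC at day 28, and 15.4 CPM from ESC and 2.88 CPM from iPSC at day 35. All libraries of days 28 and 35 lay below all of days 18 and 21. The slope was -0.84 ± 0.19 (SE), adjusted p 0.012, and the day 35 difference was -1.95 ± 0.54 (SE), adjusted p 0.0463. Without iPSC day 35 the latter was -0.96, adjusted p 0.45.

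Efnb2, a B ephrin known from vessels and dorsal retina, had the highest mean CPM of the ephrins and varied widely within days. At day 18 it was at 361, 40.99 and 161 CPM from ESC and 389.7 and 152 CPM from iPSC, and at day 21 at 151, 68.8 and 7.74 CPM from ESC and 70.0 CPM from iPSC. Days 25, 28 and 35 gave 50.6 CPM from ESC and 75.8 and 15.2 CPM from iPSC, 101 CPM from ESC and 14.3 CPM from iPSC, and 79.7 CPM from ESC and 11.3 CPM from iPSC. The highest values were again those of the low-Nrl pair, and the slope of -0.95 ± 0.44 (SE) did not pass (adjusted p 0.166). Efnb3, another B ephrin, was at 56.2, 105 and 41.7 CPM from ESC and 51.6 and 30.0 CPM from iPSC at day 18, 15.7 to 28.8 CPM at day 25, and 80.7 CPM from ESC and 16.8 CPM from iPSC at day 35. ESC day 35 lay within the day 18 range and iPSC day 35 below it, and the slope was -0.20 ± 0.23 (SE), adjusted p 0.598. Efna5, a lipid-anchored A ephrin that maps retinal axons, was at 8.17 to 34.8 CPM at day 18 and at 11.7 CPM from ESC and 2.08 CPM from iPSC at day 35, with a slope of -0.75 ± 0.35 (SE), adjusted p 0.164. The other A ephrins reached at most 13.1 CPM.

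None of the 11 tested Eph receptors was called, and all 11 slopes were negative, with a median of -0.47. The receptors together held 294 to 1104 CPM at day 18, 726 to 1114 CPM at day 21, and 257 and 156 CPM in the ESC and iPSC libraries of day 35. Epha8, a receptor of A ephrins (chr4:136929419-136956816, minus strand), made up most of that sum at days 21 and 25, where its mean peaked. At day 18 it was at 85.5, 36.9 and 803 CPM from ESC and 65.1 and 450.1 CPM from iPSC, and at day 21 at 578, 514 and 780.3 CPM from ESC and 864 CPM from iPSC. It was at 1074 CPM from ESC and 552 and 285 CPM from iPSC at day 25, 322 CPM from ESC and 103 CPM from iPSC at day 28, and 16.2 CPM from ESC and 53.2 CPM from iPSC at day 35. The day 18 libraries fell apart into 3 low and 2 high ones, day 21 was the most even day, and both day 35 libraries lay below those of days 21, 25 and 28. Because the course was not a straight line, the slope of -0.90 ± 0.53 (SE) (adjusted p 0.276) describes it poorly, and it was 0.64 without both day 35 libraries. Against day 18, the difference was 2.14 ± 0.81 (SE) at day 21, adjusted p 0.222, and -2.301 ± 1.01 (SE) at day 35, adjusted p 0.171. Per length, Epha8 had the highest mean level of the 43 members whose transcripts are all in the table, 161 TPM over the 16 libraries, followed by Efnb2 with 55.5 and Plxnb1 with 48.2 TPM. It has 1 annotated transcript, whose mean was 117 TPM at day 18, 258 at day 21, 256 at day 25, 78.2 at day 28 and 14.04 at day 35.

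The Epha8 promoter is shown for the gene of highest level per length. The window of 240 bases just upstream of its RefSeq start (GRCm38.p6, chr4:136956827-136957066, minus strand) is written 5′ to 3′ on the gene's strand, with its 44 CG dinucleotides in capitals.
Epha8: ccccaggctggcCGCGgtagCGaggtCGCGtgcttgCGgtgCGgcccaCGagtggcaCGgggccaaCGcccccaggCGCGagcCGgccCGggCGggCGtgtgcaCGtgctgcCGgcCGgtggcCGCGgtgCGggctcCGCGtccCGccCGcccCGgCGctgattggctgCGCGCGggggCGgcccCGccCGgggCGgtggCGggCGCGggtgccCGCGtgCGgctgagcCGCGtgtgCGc

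RefSeq promoters of the same length were found for 57 members (73 promoters), with a median of 15 CG dinucleotides, against 5 over all 32851 promoters. TAATCC, the letters bound by the photoreceptor factor CRX, was searched on both strands and was present in 2 member promoters (2.74%), of Robo3 and Robo4, and in 6.05% of all promoters. None of the printed windows holds it.

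Epha5, an A receptor of retinal mapping, was at 94.6, 25.5 and 69.3 CPM from ESC and 109 and 84.0 CPM from iPSC at day 18, 55.4 to 129 CPM at day 21, 86.8 to 93.7 CPM at day 25, and 62.1 CPM from ESC and 33.1 CPM from iPSC at day 35. Its slope was -0.21 ± 0.19 (SE), adjusted p 0.495, and it was 0.01 without iPSC day 35. Its coding transcripts held a median of 91.1% of its TPM, and the leading one, Epha5-201, 45.4%. Epha4, which binds ephrins of both classes, was at 89.0, 19.9 and 19.4 CPM from ESC and 94.6 and 6.96 CPM from iPSC at day 18. It was at 33.0 CPM from ESC and 0.755 CPM from iPSC at day 35, so that the day 35 libraries stood far apart, and its slope was -0.77 ± 0.51 (SE), adjusted p 0.339. Ephb2, a receptor of B ephrins, had the smallest adjusted p of the Eph receptors, 0.0807, with a slope of -0.47 ± 0.17 (SE). It was at 63.7 to 137 CPM at day 18 and 52.0 CPM from ESC and 32.3 CPM from iPSC at day 35, where both libraries lay below day 18.

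The 3 Slits and the 3 tested Robo receptors had negative slopes, and of these Robo2 fell. Robo2, a receptor that guides retinal axons (chr16:73891839-74411825, minus strand), was at 83.6, 45.0 and 134 CPM from ESC and 91.5 and 144 CPM from iPSC at day 18, and at 133, 115 and 82.1 CPM from ESC and 127 CPM from iPSC at day 21. Later levels were 51.3 CPM from ESC and 92.8 and 30.4 CPM from iPSC at day 25, 96.0 CPM from ESC and 22.0 CPM from iPSC at day 28, and 60.6 CPM from ESC and 4.04 CPM from iPSC at day 35. iPSC day 25 replicate 2 and the iPSC libraries of days 28 and 35 lay below all ESC libraries, while the ESC libraries of days 25, 28 and 35 stayed within the range of day 18. The slope was -0.97 ± 0.28 (SE), adjusted p 0.0315, the largest fall of the called members. Without iPSC day 35 it was -0.52, adjusted p 0.24. Day 35 against day 18 did not pass (-2.35 ± 0.76 (SE), adjusted p 0.0742).

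Robo1, which like Robo2 is carried by retinal ganglion cells, was at 30.4, 31.2 and 7.78 CPM from ESC and 32.4 and 7.22 CPM from iPSC at day 18 and 16.8, 1.63 and 0.532 CPM from ESC and 3.69 CPM from iPSC at day 21. At day 35 it was at 29.9 CPM from ESC and 0.313 CPM from iPSC, a wide gap between these libraries, and the slope was -0.49 ± 0.46 (SE), adjusted p 0.511. Slit2, a secreted repellent, was at 59.4, 48.8 and 30.3 CPM from ESC and 77.2 and 24.4 CPM from iPSC at day 18, 13.4 to 28.9 CPM at day 21, 3.81 to 18.1 CPM at day 25, 13.5 CPM from ESC and 5.50 CPM from iPSC at day 28, and 109.5 CPM from ESC and 5.02 CPM from iPSC at day 35. ESC day 35 was its highest library and iPSC day 35 among its lowest. The slope was -0.48 ± 0.37 (SE), adjusted p 0.42, and the day 35 difference was positive without iPSC day 35 (1.31). The summed Müller glia markers stood at 1165 and 126 CPM in the same libraries, and the bipolar cell markers at 539 and 97.1; their part was not tested. Slit1 was at 42.7, 23.0 and 33.2 CPM from ESC and 47.3 and 16.3 CPM from iPSC at day 18 and 12.9 CPM from ESC and 1.93 CPM from iPSC at day 35, where both libraries lay below day 18. Its slope was -0.84 ± 0.28 (SE), adjusted p 0.0616.

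Netrins were scarce, and among their 5 receptors 1 fell, Dcc. Dcc, the receptor of attraction to netrin 1 (chr18:71253634-72351069, minus strand), was at 41.9, 58.6 and 13.2 CPM from ESC and 38.4 and 15.5 CPM from iPSC at day 18, and at 25.8, 14.03 and 15.8 CPM from ESC and 15.4 CPM from iPSC at day 21. It was at 10.4 CPM from ESC and 15.3 and 21.6 CPM from iPSC at day 25, 18.0 CPM from ESC and 10.3 CPM from iPSC at day 28, and 12.3 CPM from ESC and 2.28 CPM from iPSC at day 35. The high values came from 3 day 18 libraries, and the remaining 2 of day 18 lay within the range of days 21 and 25. The slope was -0.79 ± 0.21 (SE), adjusted p 0.0241, and without the low-Nrl pair it was -0.65, adjusted p 0.10. The day 35 difference was -2.13 ± 0.58 (SE), adjusted p 0.0417. Its coding transcripts held a median of 100% of its TPM.

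Unc5b, a receptor of repulsion, was the netrin receptor of highest mean CPM, with 33.1, 11.6 and 38.5 CPM from ESC and 26.1 and 26.2 CPM from iPSC at day 18, 37.8, 32.7 and 100.5 CPM from ESC and 47.6 CPM from iPSC at day 21, 71.7 CPM from ESC and 30.4 and 38.5 CPM from iPSC at day 25, and 16.1 CPM from ESC and 6.59 CPM from iPSC at day 35. Its highest library was ESC day 21 replicate 3, and its slope was -0.53 ± 0.26 (SE), adjusted p 0.181. Unc5c had the highest slope of all members, 0.59 ± 0.29 (SE), which did not pass (adjusted p 0.19), with 5.09 to 30.6 CPM at day 18 and 41.7 CPM from ESC and 20.8 CPM from iPSC at day 35. Ntn4, a netrin of basement membranes, was at 16.6, 4.17 and 10.1 CPM from ESC and 18.8 and 5.02 CPM from iPSC at day 18 and 11.6 CPM from ESC and 0.258 CPM from iPSC at day 35, with a slope of -0.52 ± 0.33 (SE), adjusted p 0.316. Ntn1, the main ligand of Dcc, was at 1 CPM or more in 7 libraries and reached 7.52 CPM in ESC day 18 replicate 2. It was at 6.55 CPM from ESC and 0.0599 CPM from iPSC at day 35, and its slope was -0.05 ± 0.29 (SE), adjusted p 0.924.

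**Figure D3:**
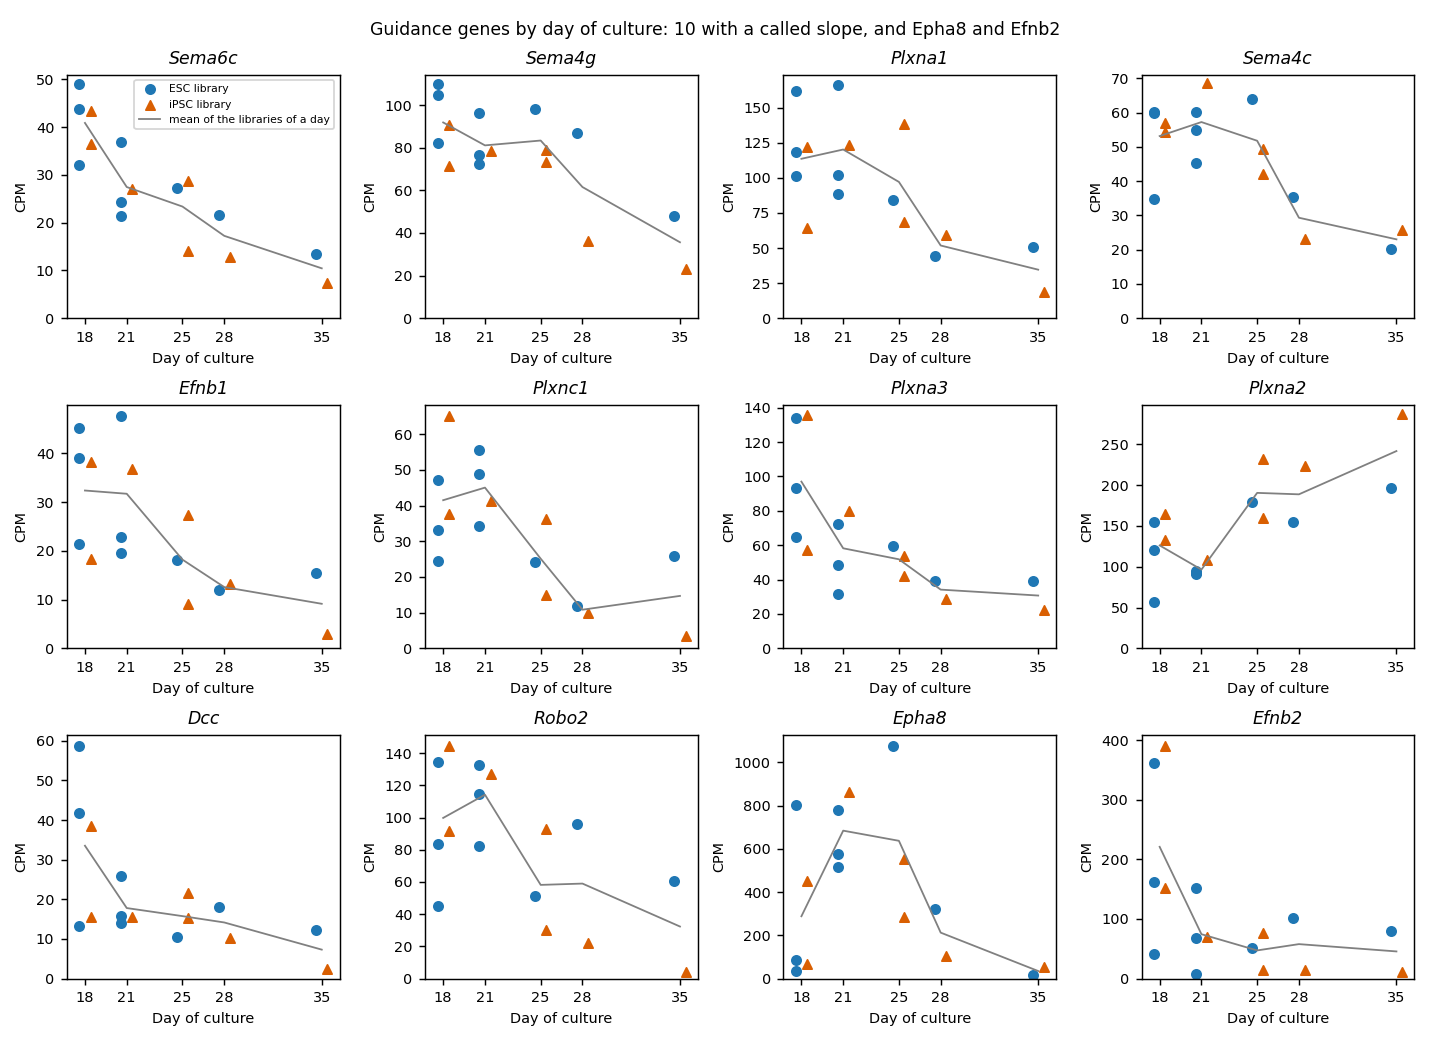
CPM in each library by day of culture for the 10 members with a called slope and for Epha8 and Efnb2, with circles for ESC, triangles for iPSC and lines through the mean of each day; each panel has its own axis from 0. Plxna2 is highest at day 35, the other called genes are lowest at day 28 or 35, and Epha8 peaks at days 21 and 25.

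In the day 35 comparison the 7 members called were all lower: Sema6c, Sema4g, Sema4c, Plxna1, Plxna3, Efnb1 and Dcc. This was 11.1% of the members tested, against 7.53% of all genes called in either direction, 2.99% called lower and 4.54% called higher. The median difference of the members was -0.74, with 50 of 63 negative (79.4%). That of all genes was 0.05, with 46.9% negative. Each source had 1 library at day 35, so the spread came from the fit over all 16 libraries. The count rested on single libraries: without iPSC day 35 none of the 7 was called and 1 other member was, Plxnb3, higher at day 35; without iPSC day 18 replicate 1 the count was 2, and without ESC day 18 replicate 2 it was 11. For the slope, 2 members, Sema4c and Sema6c, were called without iPSC day 35, and 21 without ESC day 35. Without both, 6 were called and all 6 were lower: Sema6c, Plxna3, Plxnc1, Efna5, Nrp2 and Slit2. Without the low-Nrl pair 6 were called, Plxna2 higher and Sema6c, Sema4g, Sema4c, Plxna1 and Plxnc1 lower. The shares of all genes called without these libraries are not given here, so the counts show only how far the calls rest on single libraries. Sema6c was called in 29 of the 30 settings tried for its slope, and Robo2 in 18 of 28.

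At the earlier days no member was called with limma. At day 28, 0 of 63 were called (0.579% of all genes, and 0.0724% lower), with 19 at an unadjusted p under 0.05 (30.2%, against 22% of all genes). All 19 were lower than at day 18, where 10.8% of all genes were lower at that p. The smallest adjusted p was 0.0844, for Sema6c. At day 25, 0 were called (0.0395% of all genes), with 15 at an unadjusted p under 0.05, of which 3 were higher (23.8%, against 24.4% of all genes). At day 21, 0 were called, as for all genes (0%), with 26 at an unadjusted p under 0.05, 24 of them lower (41.3% of members in either direction, against 18.8% of all genes, and 38.1% lower, against 8.54%). The smallest adjusted p at day 21 was 0.217. Robo3, a divergent Robo of commissural axons, had the smallest raw p there, with a difference of -2.37 ± 0.60 (SE). It was at 0.981 to 12.2 CPM at day 18 and 0 to 2.12 CPM at day 21. Between ESC day 21 and ESC day 18, with 3 libraries each, 0 were called (0% of all genes), and all 16 members with an unadjusted p under 0.05 were lower at day 21 (25.4%, against 13.6% of all genes in either direction and 5.25% lower). With DESeq2, on the 40 members with complete counts, 4 were called at day 28 and 0 at day 25, day 21 and ESC day 21. The share of all genes called with DESeq2 is not given here. edgeR called 0 in each. Array weights in limma, which let libraries that fit poorly count less, raised the count to 36 at day 28, 49 at day 25 and 38 at day 21, and left it at 0 for ESC day 21. With those weights 5687, 9552 and 6037 of all 15202 genes were called at these days.

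iPSC and ESC libraries gave no called member when compared over all days. 0 of 63 were called (0% of all genes), 3 had an unadjusted p under 0.05 (5.53% of all genes did, 2.22% with the lower level in iPSC), and the smallest adjusted p was 0.753. edgeR and DESeq2 also called 0 of the 40 members they could test. These values and the slopes of each source rest on the labelled sources, against which the Y-linked genes of ESC day 18 replicate 1 and iPSC day 18 replicate 2 stood. The Y-linked genes of iPSC day 25 replicate 1, at a mean of 11.45 CPM, also lay above those of the remaining iPSC libraries. When the day 18 pair at odds in Y-linked genes was left out, 0 members were called by source or for the difference of slopes. At an unadjusted p under 0.05 there were 1 and 18. The share of all genes at that p is not given here for these fits, so neither count is a result about the members. The slopes within each source were not refitted without this pair. The 3 members at that p over all libraries were Sema4g (-0.49 ± 0.15 (SE) in iPSC relative to ESC), Slit3 (-0.94 ± 0.37 (SE)) and Sema5b (-1.01 ± 0.41 (SE)). The slope was lower in iPSC than in ESC libraries for 52 of the 63 members and for 55.1% of all genes. Within ESC, 35 slopes were negative and 28 positive, with a median of -0.08, and 0 members were called (0.697% of all genes). Within iPSC, 55 were negative and 8 positive, with a median of -0.61, and 10 were called, all lower (15.9%, against 8.48% of all genes, and 4.89% lower). Of all genes, 45.5% had a negative slope within ESC and 52.4% within iPSC. The difference between the slopes, tested as a product of day and source, was called for 0 members (0% of all genes). It had an unadjusted p under 0.05 for 10 members, all with the lower slope in iPSC (15.9%, against 8.11% of all genes in either direction and 6.33% lower in iPSC). edgeR and DESeq2 called 0 here too. Robo2 had the smallest of these, with slopes of -0.19 in ESC and -1.89 in iPSC, a difference of -1.70, raw p 0.000344 and adjusted p 0.351 (limma). The other 9 were Epha3, Plxnc1, Sema5a, Ntn4, Epha5, Slit1, Plxnd1, Plxnb3 and Efnb2. iPSC day 35 was the lowest library for 23 of the 63 members and ESC day 35 the highest for 11. The shares of all genes with their extremes in these libraries are not given here, so these counts describe the libraries only. The levels of Müller glia and bipolar markers given above differ between these libraries, and their part was not tested.

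**Figure D4:**
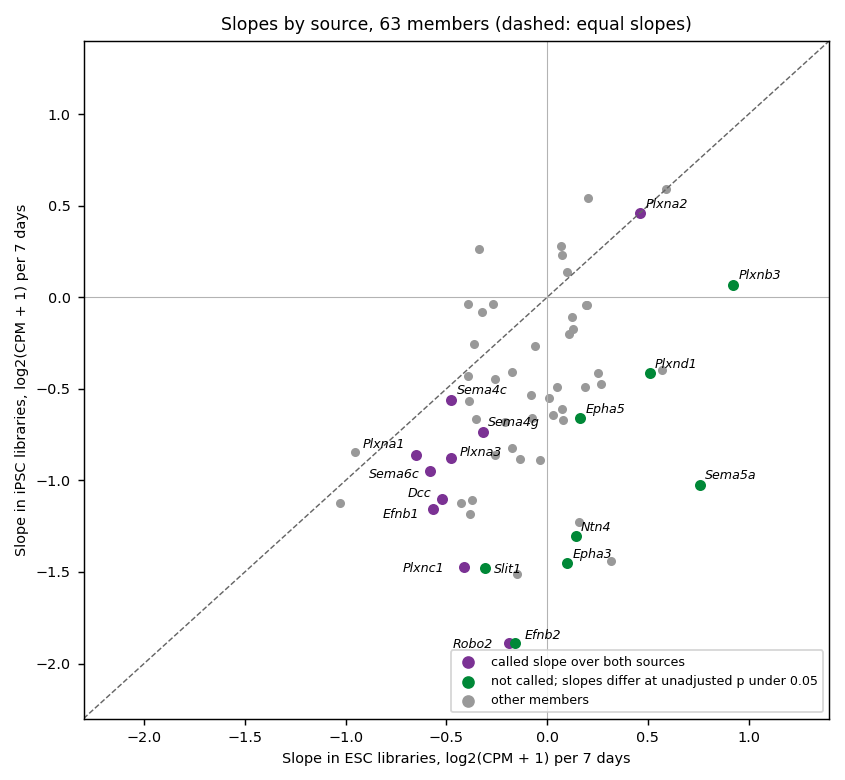
Slope of each of the 63 members in ESC libraries (horizontal) against iPSC libraries (vertical), in log2(CPM + 1) per 7 days, with a dashed line where they are equal. Purple points were called over both sources, green points were not called but differ between sources at an unadjusted p under 0.05; most points lie below the line, Plxna2 lies on it, and Robo2 and Efnb2 lie farthest down.

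The libraries that stood apart also held the extremes of many members. For 14 of the 63, the highest values were those of the low-Nrl pair: Efna4, Efna5, Efnb2, Epha4, Ephb1, Ephb2, Nrp1, Ntn4, Plxna3, Sema3a, Sema3g, Sema4f, Sema6a and Slit1. The share of all genes highest in this pair is not given here, so the count is not a result about the members. In this pair the 7 progenitor markers summed to 2017 and 2041 CPM, the 5 markers of dividing cells to 1006 and 1127, and the rod markers to 43.2 and 39.9; their part in the members' levels was not tested. Without the pair, 42 of 63 slopes were negative and the median slope was -0.18. The share of all genes with a negative slope in that fit is not given here.

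**Figure D5:**
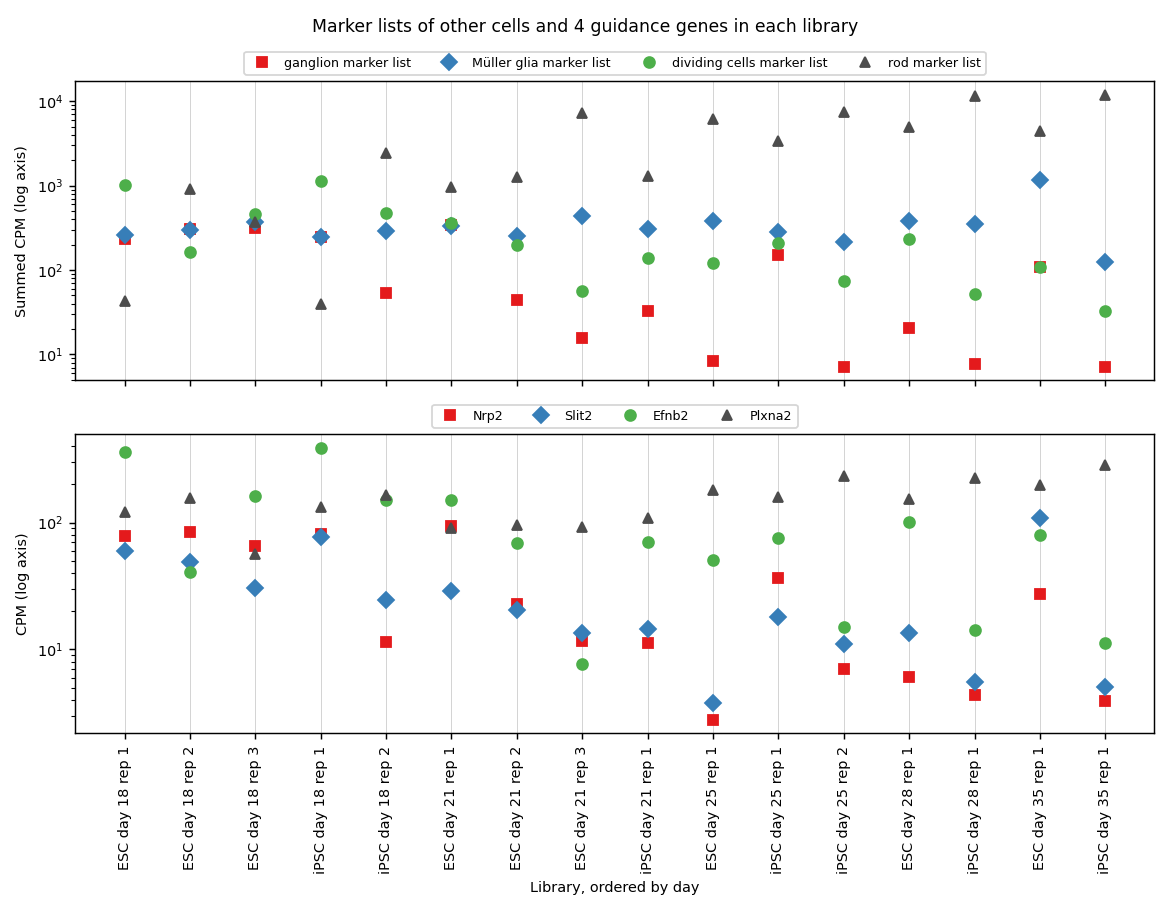
Summed CPM of 4 marker lists (top) and CPM of 4 guidance genes (bottom) in each library, ordered by day, on log axes. Müller glia markers and Slit2 are both highest in ESC day 35, and ganglion markers and Nrp2 are both high in ESC day 21 replicate 1. Rod markers and Plxna2 are high in the latest iPSC libraries. Other libraries differ. Slit2 is at 59.4 and 77.2 CPM in ESC and iPSC day 18 replicate 1, where Müller glia markers sum to 263.4 and 243.5 CPM. Plxna2 is at 91.9 CPM in ESC day 21 replicate 3, where rod markers sum to 7352 CPM.

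Genes that act beside the members were taken as 3 lists. Over all 15202 genes tested, 6.81% rose and 5.29% fell by the slope, and the counts of each list stand beside these shares. Of 42 guidance signal transducers, 5 rose and 6 fell by the slope. Farp2, an exchange factor that binds plexins, rose by 0.93 per 7 days (from a mean of 4.40 CPM at day 18 to 22.0 CPM at day 35), and Limk2, a kinase that acts on cofilin, rose by 0.41 (69.1 to 138.5 CPM). Vav2, an exchange factor used by Eph receptors, fell by 0.72 (40.4 to 11.6 CPM), and Nck2, an adaptor between guidance receptors and actin, fell by 0.63 (27.2 to 9.36 CPM). Adjusted p was 0.00105, 0.00481, 0.00534 and 0.0062 in that order (limma). Of 29 other cues, receptors and co-receptors, 0 rose and 3 fell. Islr2, also called Linx, an adhesion protein of growing axons, fell by 2.05 per 7 days, from a mean of 302 to 13.0 CPM. Gfra1, a receptor of GDNF, fell by 1.09, and Ryk, a Wnt receptor in axons, by 0.20 (adjusted p 0.00168, 0.00776 and 0.0444). The proteases Adam10 and Adam17, which cleave ephrins and other guidance proteins, had slopes of -0.23 and -0.10 and did not pass. The median slope was -0.13 for the transducers and -0.40 for the other cues and receptors.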

How the data were processed

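Three-dimensional organoid photoreceptors were profiled in 16 libraries. Per the submitters' processing notes and design text, the authors trimmed reads with Trimmomatic 0.36, quantified transcripts with kallisto 0.42.5 against Ensembl cDNA of GRCm38.p4, summed genes with tximport scaled by length and converted counts to CPM with edgeR. The deposited gene values have another unit, the square of log2(CPM + 1) minus 1, as inferred from the values, and were turned back into CPM. For 8493 of 8688 genes above 0 everywhere, the ratio of CPM to TPM was constant within 0.01 (log2). The authors' tables of estimated counts and of TPM stop at 65535 transcripts, so 43 members were complete there, of which 40 passed the count filter.

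Tests used limma 3.58.1 with trend (R 4.3.3) on log2(CPM + 1), a pseudocount of 1, for genes with 1 CPM in 2 libraries, and Benjamini-Hochberg adjustment. Such differences understate the change of low genes. edgeR 4.0.16 and DESeq2 1.42.0, on gene sums of the estimated counts, rounded (at least 10 in 2 libraries), other filters, scalings and pseudocounts, array weights, each source alone and each library left out were alternatives. Leaving out both day 35 libraries, the low-Nrl pair or the pair at odds in Y-linked genes was chosen after seeing the data. Fits were tested on simulated data. Named were the called members and the 2 of highest mean CPM in each role, context genes, and up to 4 called genes of each list. Sema7a, Sema5a, Sema5b, Plxnb3, Plxnd1, Efna5, Epha3, Epha4, Ephb2, Robo3, Slit3 and Unc5c were named after their values were seen. The members and lists were chosen with earlier results of these data known.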

Additional observations from a re-analysis of the deposited data

Results flagged for a closer look

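In groups of 4 or 5 libraries of a day, a library was set apart when its gap to the nearest other, over the range of the group, passed Dixon's 95% critical value. Chance flags about 1 in 20 groups, and 7 of the 50 groups of named members were set apart.

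At day 18, Sema4c was lowest in ESC replicate 2, at 34.65 CPM against 54.3 to 60.05 CPM in the other 4 libraries. Nrp2 was lowest in iPSC replicate 2, at 11.52 CPM against 65.53 to 85.11 CPM. At day 21, ESC replicate 1 was the highest library for the netrin receptor Dcc, at 25.81 CPM against 14.03 to 15.85 CPM in the other 3. The same library was highest for Nrp2, at 93.42 against 11.28 to 22.9 CPM, for Nrp1, at 33.52 against 10.49 to 12 CPM, and for Ntn1, at 3.142 against 0 to 0.313 CPM. Ganglion cell markers summed to 346 CPM in it and to 15.6 to 43.8 CPM in the rest of day 21. Several other lists were also highest of day 21 in this library. Progenitor markers summed to 588 against 95.1 to 321.5 CPM, and markers of dividing cells to 364 against 55.8 to 197 CPM. Fibroblast and feeder markers summed to 75.4 against 7.16 to 12.4 CPM, and pigment epithelium markers to 35.5 against 3.71 to 7.23 CPM. The part of any of these cells was not tested. Plxnb1 was lowest in ESC day 21 replicate 2, at 105.9 CPM against 141.9 to 148.3 CPM.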

How the results depend on the processing

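Called members by slope, 10 over both sources, came to 18 with the replicate block, 0 within ESC, 6 without both day 35 libraries and 6 without the low-Nrl pair, and to 2 to 21 with single libraries left out. At day 35 (7) they came to 2 with array weights, 2 with edgeR, 4 with no filter, 19 with the replicate block, 1 within ESC, 3 within iPSC, 1 without the low-Nrl pair, 3 without the pair at odds in Y-linked genes, and 1 to 11 with single libraries left out. At day 28 (0) they came to 36 with array weights, 4 with DESeq2, 15 with the block and 0 to 1 with libraries left out; at day 25 (0) to 49 with array weights, 9 with the block and 0 to 2; and at day 21 (0) to 38 with array weights, 0 with the block and 0 to 2. All libraries of days 28 and 35, and both of the low-Nrl pair, are numbered replicate 1. With the block, these days were therefore compared mainly with replicate 1 of day 18. ESC day 21, the source comparison and the difference of slopes stayed at 0 in every setting run. The share of all genes called also changed between settings, as with the array weights above, and is not given here for most of them. These counts therefore describe the settings and are not a result about the members. The causes were not tested.

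Replicate numbers paired libraries only in part. Correlations of deviations between same-numbered ESC libraries of days 18 and 21 were 0.314, 0.059 and 0.249. ESC day 18 replicates 1 and 3 each correlated best with the day 21 library of their own number. Replicate 2 correlated best with replicate 3 (0.123). The iPSC numbers of days 18 and 25, with 2 each, gave 0.381 for the same number and -0.381 for the other. With 2 libraries, deviations from the group mean mirror each other. These values can therefore differ only in sign, and their contrast cannot show whether the numbers pair libraries.

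No called member changed sign in any setting for the slope or day 35. Uncalled ones did. Slopes turned within ESC for Efnb3 (0.048), Epha5 (0.16), Nrp1 (0.075), Ntn4 (0.14), Ntn1 (0.25), Robo1 (0.32) and Slit2 (0.16); without both day 35 libraries for Epha8 (0.64), Epha5 (0.14) and Sema3f (0.20); and without the low-Nrl pair for Nrp1 (0.029) and Ntn1 (0.16). Day 35 differences turned within ESC for Efnb3 (0.36), Epha5 (0.17), Nrp1 (0.15), Ntn4 (0.32), Ntn1 (0.73), Plxnb1 (-0.037), Robo1 (0.58) and Slit2 (1.28), within iPSC for Plxnb2 (0.088) and Sema3f (0.079), and with array weights for Sema3f (0.077). With 1 library left out, slopes ran from -0.35 to 0.0063 for Epha5, -0.51 to 0.10 for Ntn1 and -0.28 to 0.046 for Sema3f. Day 35 differences ran from -1.44 to 0.53 for Efnb3, -1.62 to 0.092 for Nrp1, -2.81 to 0.11 for Ntn4, -1.496 to 0.85 for Ntn1, -1.19 to 0.063 for Plxnb2, -0.030 to 0.56 for Plxnb1, -3.61 to 0.55 for Robo1, -0.79 to 0.055 for Sema3f and -2.94 to 1.31 for Slit2, with the turns at iPSC day 35 or ESC day 35 left out. Scaling libraries to the same CPM sum shifted the median of all genes by -0.13 at day 35, where the members' median became -0.87. A count was worth up to 0.216 CPM, which limits Ntn1, Ntn5, Epha6 and Robo4.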
